A study of Mus musculus with 9 samples.

Results

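The genes described here encode tumour necrosis factor (Tnf), interleukin-6 (Il6), the subunits of the IL-12 family of cytokines (Il12a, Il12b, Il23a, Il27 and Ebi3) and interleukin-10 (Il10). Every probe that the array's annotation gives to one of these 8 symbols alone was taken, whatever its values. This found 9 probes for 7 of the 8 genes, out of 45281 probes in all: Tnf and Il23a have 2 each, and Il6, Il12a, Il27, Ebi3 and Il10 have 1 each. Il12b was not analysed here. RNA came from primary microglia of the cortex of C57BL/6J mouse pups aged 1 to 5 days, all with intact cannabinoid receptor 2 (CB2+/+), and was measured on Illumina bead arrays. The 3 groups have 3 arrays each: cultures without stimulus, cultures exposed for 16 h to lipopolysaccharide (LPS) and 20 ng/ml of interferon-gamma (IFNγ), and cultures exposed for 48 h to 100 U/ml of interleukin-4 (IL-4). LPS is listed at 100 with an incomplete unit, and no culture time is listed for the unstimulated cells. The LPS + IFNγ and IL-4 groups therefore differ in both agent and time, which cannot be told apart. Whether the 3 arrays of a group come from separate cultures is not stated, so the p-values measure only the spread between these arrays.

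Microglia are the resident macrophages of the brain. In macrophages, LPS acts through Toll-like receptor 4 and NF-κB, and IFNγ acts through its own receptor, and these routes meet at the promoters of the inflammatory cytokine genes. TNF and IL-6 are the best known early inflammatory cytokines. The IL-12 family consists of pairs of subunits: Il12a with Il12b forms IL-12, Il23a with Il12b forms IL-23, and Il27 with Ebi3 forms IL-27. IL-10 is the main inhibitory cytokine of macrophages and restrains the production of TNF, IL-6 and IL-12. IL-4 drives the alternative form of macrophage activation.

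The start regions of Tnf, Il6 and Ebi3 are shown because all 3 genes had higher probe values after LPS + IFNγ and a promoter sequence was at hand for each. Sequences are from RefSeq, build GRCm38.p6, which held entries for 5 of the 8 genes, Il12a with 2 starts. Each runs 5′ to 3′ on the gene's own strand from 250 bases before the annotated start to 50 bases from it. Capitals mark matches, on either strand, to the κB pattern GGGNNNNNCC and to the C/EBP pattern TTGCNNAA.
Tnf, chr17:35201958-35202257, minus strand: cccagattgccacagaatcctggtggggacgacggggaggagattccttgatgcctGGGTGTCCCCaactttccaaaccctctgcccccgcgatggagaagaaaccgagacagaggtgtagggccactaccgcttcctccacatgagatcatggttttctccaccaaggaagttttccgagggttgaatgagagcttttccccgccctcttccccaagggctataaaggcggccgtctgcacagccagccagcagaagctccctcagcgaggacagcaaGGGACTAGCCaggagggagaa
Il6, chr5:30012864-30013163, plus strand: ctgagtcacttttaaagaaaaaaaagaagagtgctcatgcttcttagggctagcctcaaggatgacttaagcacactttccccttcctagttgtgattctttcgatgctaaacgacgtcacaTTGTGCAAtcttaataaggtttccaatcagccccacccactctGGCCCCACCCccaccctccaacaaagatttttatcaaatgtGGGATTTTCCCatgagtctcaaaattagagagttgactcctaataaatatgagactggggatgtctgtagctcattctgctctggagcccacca
Ebi3, chr17:55952373-55952672, plus strand: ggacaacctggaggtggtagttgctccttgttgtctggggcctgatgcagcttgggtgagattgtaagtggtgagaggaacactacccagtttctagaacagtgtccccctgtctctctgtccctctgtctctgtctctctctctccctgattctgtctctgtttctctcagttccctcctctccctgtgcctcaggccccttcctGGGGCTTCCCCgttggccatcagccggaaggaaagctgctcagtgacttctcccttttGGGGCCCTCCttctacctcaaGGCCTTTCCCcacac
Counting the start as base 1, the κB pattern matched at bases -194 to -185 and 30 to 39 of Tnf. In Il6 it matched at -85 to -76 and, as overlapping matches on the 2 strands, at -44 to -34. The region of Ebi3 had 3 such stretches, at -44 to -34, at 15 to 24 and at 36 to 45. The C/EBP pattern matched once, at -128 to -121 of Il6, and the AP-1 pattern TGANTCA matched at -249 to -243 of the same region. A TATAAA stood at -29 to -24 of Tnf. No match overlapped one of a different pattern. These patterns are short: of 32851 mouse promoters of the same length, 50.8% held the κB pattern, 10.8% the C/EBP pattern, 7.81% the AP-1 pattern and 13.6% the TATAAA. The interferon pattern GAAANNGAAA (3.44% of promoters) and the STAT pattern TTCNNNGAA (8.3%) were found in none of the 6 windows of these genes. A match is a run of letters and says nothing about binding in these cells.

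**Figure D1:**
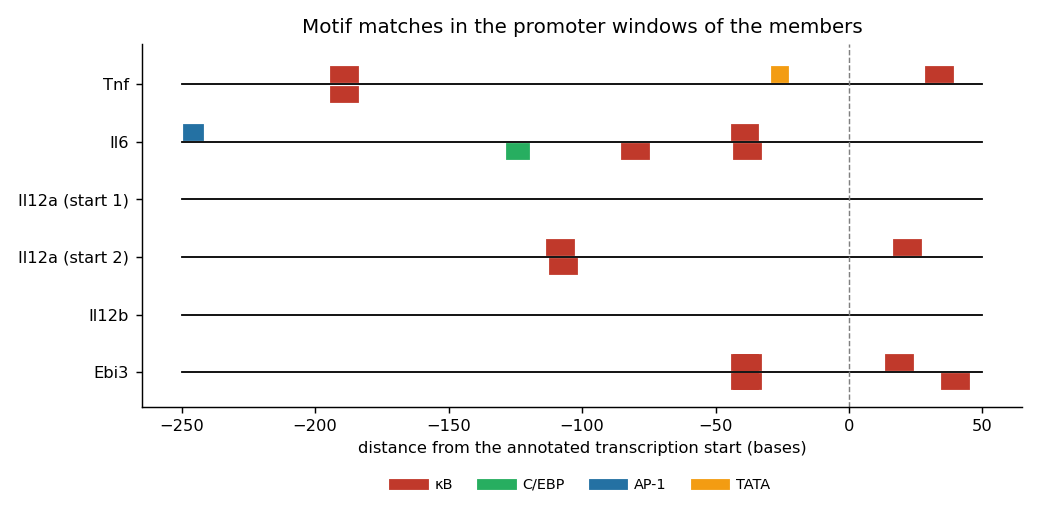
Positions of motif matches in the 6 promoter windows, from 250 bases before to 50 bases from the annotated start (x axis, bases; dashed line, start). Boxes above a line are matches on the gene's strand and boxes below it on the other strand, coloured by pattern. Tnf, Il6, Ebi3 and 1 of the 2 Il12a windows hold κB matches, and the windows of Il12b and of the other Il12a start hold no match.

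On 8 arrays the mean intensity was 310.9 to 378.5, and 14475 to 16435 probes were detected (detection p under 0.05). LPS + IFNγ replicate 2 was a weak array: its intensities averaged 112, and 6208 probes were detected on it. Across probes its normalized values had r = 0.765 with replicate 1 and 0.761 with replicate 3, which had 0.980 with each other. After normalization its lowest detected value was 7.34 on the log2 scale, against 4.74 to 4.92 on the other arrays, so levels near background are poorly resolved on it. All 3 unstimulated arrays were on the second of 2 slides, with replicate 3 of each other group, and replicates 1 and 2 of the stimulated groups were on the first. Levels below are background-corrected, quantile-normalized log2 intensities, and a difference is a difference between group means on that scale. A probe entered the tests if it was detected on at least 3 of the 9 arrays, as were 16895 probes, and the leading probe of each of 9391 genes stands for the gene in counts over genes. Differences were called at an adjusted p under 0.05 in limma's moderated test, with Benjamini-Hochberg adjustment over all probes tested.

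After LPS + IFNγ, Tnf, Il6, Il27 and Ebi3 were called higher than in unstimulated cells. Il10 and Il23a were tested and not called, and Il12a was not detected on any array. Thus 4 of the 6 genes tested were called higher and 0 lower. Over all 9391 genes, 6.12% were called higher and 12.2% lower, with a median difference of -0.22. Il6 and Il27 passed the detection filter through their LPS + IFNγ arrays, so the 4 calls are a description and the share of genes called is no yardstick for them. Ranked by difference among the 9391 genes, Tnf was 24th and Ebi3 257th from the highest. Il6 and Il27 were not ranked, since most of their unstimulated values were below detection.

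Tnf encodes the cytokine that gave its family its name. Its probe ILMN_2467245 read 319.9, 404 and 319 as raw intensity on the unstimulated arrays, 12450, 413 and 19097 on the LPS + IFNγ arrays, and 177, 227 and 196 on the IL-4 arrays. The weak array's raw reading was thus close to those of unstimulated cells, while its normalized level was not. Normalized, the levels were 7.56, 7.69 and 7.19 in unstimulated cells, 13.03, 12.16 and 13.80 after LPS + IFNγ, and 5.98, 6.59 and 6.09 after IL-4. The 3 groups did not overlap. The LPS + IFNγ mean of 13.00 ± 0.82 (SD, n = 3) exceeded the unstimulated mean of 7.48 ± 0.26 by 5.52 ± 0.40 (SE; limma adjusted p = 0.000123), which is 45.9-fold. In RNA from a whole culture, more cells that express a gene and more RNA per cell cannot be told apart.

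The second Tnf probe, ILMN_2899863, gave the same order. Its levels were 7.72, 7.80 and 7.18 in unstimulated cells, 12.97, 11.83 and 13.59 after LPS + IFNγ, and 6.17, 6.77 and 5.93 after IL-4. LPS + IFNγ exceeded unstimulated by 5.23 ± 0.45 (limma adjusted p = 0.000256). Both probes thus put the difference at over 5 log2 units, and it was 5.94 and 5.71 without the weak array.

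Il6 encodes a cytokine that signals through the shared receptor subunit gp130. Its probe, ILMN_1243601, read 138, 123 and 122 as raw intensity on the unstimulated arrays, 924, 264 and 997 on the LPS + IFNγ arrays, and 130.4, 127 and 132 on the IL-4 arrays. It was detected on 1 of 3 unstimulated arrays (replicate 1), on 3 of 3 LPS + IFNγ arrays and on 0 of 3 IL-4 arrays. Normalized levels were 5.15, 4.48 and 4.46, then 9.31, 11.41 and 9.40, then 4.71, 4.68 and 4.66. The LPS + IFNγ arrays lay above all others, and the highest of them was the weak array. LPS + IFNγ exceeded unstimulated by 5.34 ± 0.52 (limma adjusted p = 0.000456), and by 5.16 with undetected values raised to the lowest detected level of their array. Without the weak array the difference was 4.66 (limma adjusted p = 4.98e-06).

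Among the IL-12 family, the subunits of IL-27 were the ones called. Il27, which encodes the cytokine-like subunit, was detected on the 3 LPS + IFNγ arrays and on no other. Its probe, ILMN_2630045, read 127, 131 and 117 as raw intensity on the unstimulated arrays, 842, 113 and 1381 on the LPS + IFNγ arrays, and 129, 121 and 127 on the IL-4 arrays. On the weak array the raw reading was below all the undetected readings of the other arrays, and its detection p on that array was 0.016. Normalized levels were 4.69, 4.72 and 4.36 in unstimulated cells, 9.19, 8.23 and 9.88 after LPS + IFNγ, and 4.68, 4.49 and 4.51 after IL-4. LPS + IFNγ was at least 20.3-fold higher than unstimulated, with undetected values raised to the lowest detected level of their array (fitted difference 4.51 ± 0.38, limma adjusted p = 0.000232). The unstimulated and IL-4 arrays overlapped.

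Ebi3 encodes the soluble receptor-like subunit that pairs with the Il27 product, and it was detected on all 9 arrays. The raw readings of its probe, ILMN_2662322, were 1314, 1082 and 1311 in unstimulated cells, 4205, 337 and 4465 after LPS + IFNγ, and 1082, 727 and 782 after IL-4. Normalized levels were 9.95, 9.35 and 9.54, then 11.45, 11.86 and 11.57, then 9.45, 8.79 and 8.71. LPS + IFNγ arrays stood above the rest, which overlapped each other. The mean after LPS + IFNγ was 11.62 ± 0.21 (SD, n = 3), against 9.62 ± 0.31 in unstimulated cells. The difference was 2.01 ± 0.28 (limma adjusted p = 0.00235), or 4.02-fold. Of the pair that forms IL-27, Ebi3 was thus detected in every group and Il27 only after LPS + IFNγ.

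Il12a and Il23a encode the subunits that pair with the Il12b product. Il12a (ILMN_2706462) was not detected on any of the 9 arrays. Its normalized level was 4.31 to 4.58 on 8 arrays and 7.15 on the weak array, where the detection p was 0.0641 and the level stayed under that array's lowest detected value. The second Il23a probe, ILMN_2799748, was likewise undetected on all 9 arrays. The first, ILMN_2671320, was detected on 0 of 3 unstimulated arrays, 1 of 3 LPS + IFNγ arrays (replicate 1) and 2 of 3 IL-4 arrays (replicates 2 and 3). Its levels were 4.49, 4.62 and 4.59 in unstimulated cells, 5.59, 5.92 and 4.72 after LPS + IFNγ, and 4.70, 5.26 and 4.82 after IL-4. Both stimulated groups lay above the unstimulated arrays, all of which were below detection. The difference of LPS + IFNγ from unstimulated was 0.85 ± 0.32 and did not pass (limma adjusted p = 0.119). It passed without LPS + IFNγ replicate 3 (1.19, adjusted p = 0.0254) and was 0.59 without the weak array (adjusted p = 0.132). The 2 Il23a probes disagreed in detection, so the level of this gene rests on 1 probe near background.

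Il10 was detected on 0 of 3 unstimulated arrays, on 2 of 3 LPS + IFNγ arrays (replicates 1 and 3) and on 1 of 3 IL-4 arrays (replicate 1). Its probe, ILMN_1238505, read 114, 118 and 117 as raw intensity in unstimulated cells, 157, 94.4 and 148 after LPS + IFNγ, and 137, 124 and 128 after IL-4. Normalized levels were 4.33, 4.37 and 4.36, then 5.81, 4.29 and 5.61, then 4.95, 4.56 and 4.54. The 2 well-read LPS + IFNγ arrays were the highest of the 9, and the weak array was the lowest. With all arrays the difference of LPS + IFNγ from unstimulated was 0.89 ± 0.38 and did not pass (limma adjusted p = 0.161). Without the weak array it was 1.36 and passed (adjusted p = 0.000687), and the same holds against IL-4 (1.03, adjusted p = 0.00305). Whether Il10 is called therefore turned on 1 array. Without that array Il10 was at least 1.94-fold higher than unstimulated, with undetected values raised to the lowest detected level of their array. Leaving it out also gave more calls over all probes against unstimulated than leaving out any other single array (counts below). The call is thus not particular to Il10.

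**Figure D2:**
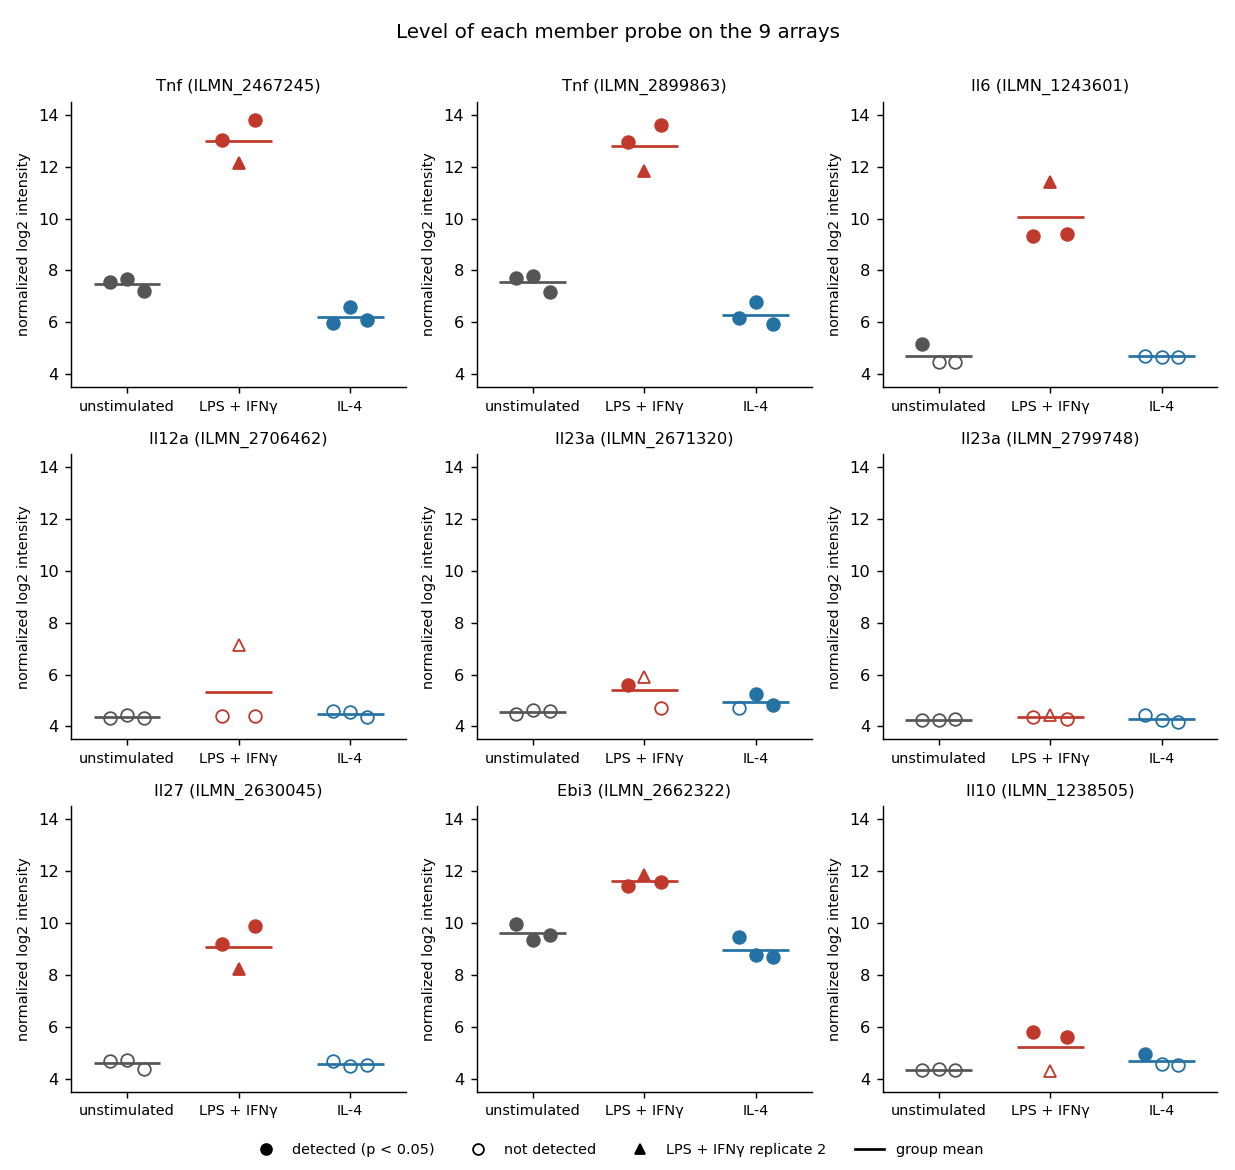
Normalized log2 intensity (y axis) of each of the 9 probes on the 9 arrays, by group (x axis). Filled symbols are detected (detection p under 0.05) and open ones are not, triangles are LPS + IFNγ replicate 2, and horizontal lines are group means of 3 arrays. Tnf, Il6, Il27 and Ebi3 sit higher on every LPS + IFNγ array than on any other, and Il10 does so on 2 of the 3.

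IL-4 called none of these genes: 0 of the 6 tested were higher and 0 lower than in unstimulated cells. Few genes were called at all, 0.0639% of the 9391 higher and 0% lower. Among single probes, 10 were called and 605 of 16895 had an unadjusted p under 0.05. Both Tnf probes were lower, and the Il10 probe and the tested Il23a probe (ILMN_2671320) higher, on every IL-4 array than on any unstimulated array. Over all 9391 genes, 10% lay wholly above and 8.23% wholly below in this way. The Il10 and Il23a probes were below detection on all unstimulated arrays, and Il10 was detected on 1 of 3 IL-4 arrays. The Tnf differences were -1.26 ± 0.40 (unadjusted p = 0.0129, limma adjusted p = 0.874) and -1.28 ± 0.45 (adjusted p = 0.997), and Tnf was 70th from the lowest of the 9391 genes. Replicate numbers paired the arrays of these 2 groups, and with number as a block in a fit of these 6 arrays Tnf was called lower on both probes (adjusted p = 0.0316 and 0.0293), as were 77 of the 170 probes called. With slide as a block, the Tnf difference was -0.92 and did not pass. Ebi3 differed by -0.63 ± 0.28 (adjusted p = 1), and its IL-4 and unstimulated arrays overlapped. The 95% intervals of the other differences were -1.21 to 1.18 for Il6, -0.37 to 1.10 for Il23a, -0.89 to 0.84 for Il27 and -0.53 to 1.20 for Il10. Il27 was detected on 0 of 3 arrays in both groups, and Il6 on 1 of 3 unstimulated and 0 of 3 IL-4 arrays. Their intervals therefore compare readings near background and do not bound an effect of IL-4.

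LPS + IFNγ against IL-4 shares its LPS + IFNγ arrays with the first comparison. It called the same 4 genes higher and 0 lower, and of all genes 5.69% were called higher and 11.6% lower. Here too Il6 and Il27 passed the detection filter through their LPS + IFNγ arrays, so that share is no yardstick for the 4 calls. The Tnf probes differed by 6.78 ± 0.40 and 6.51 ± 0.45 (limma adjusted p = 5.87e-05 and 9.29e-05), and Tnf was 6th from the highest of the 9391 genes. Il6 was at least 38.9-fold and Il27 at least 20.2-fold higher after LPS + IFNγ than after IL-4, and without the weak array these bounds were 24.2-fold and 27.3-fold. Ebi3 differed by 2.64 ± 0.28 (adjusted p = 0.000711). Il10 differed by 0.55 ± 0.38 and Il23a by 0.48 ± 0.32, neither of which passed (adjusted p = 0.369 and 0.359).

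**Figure D3:**
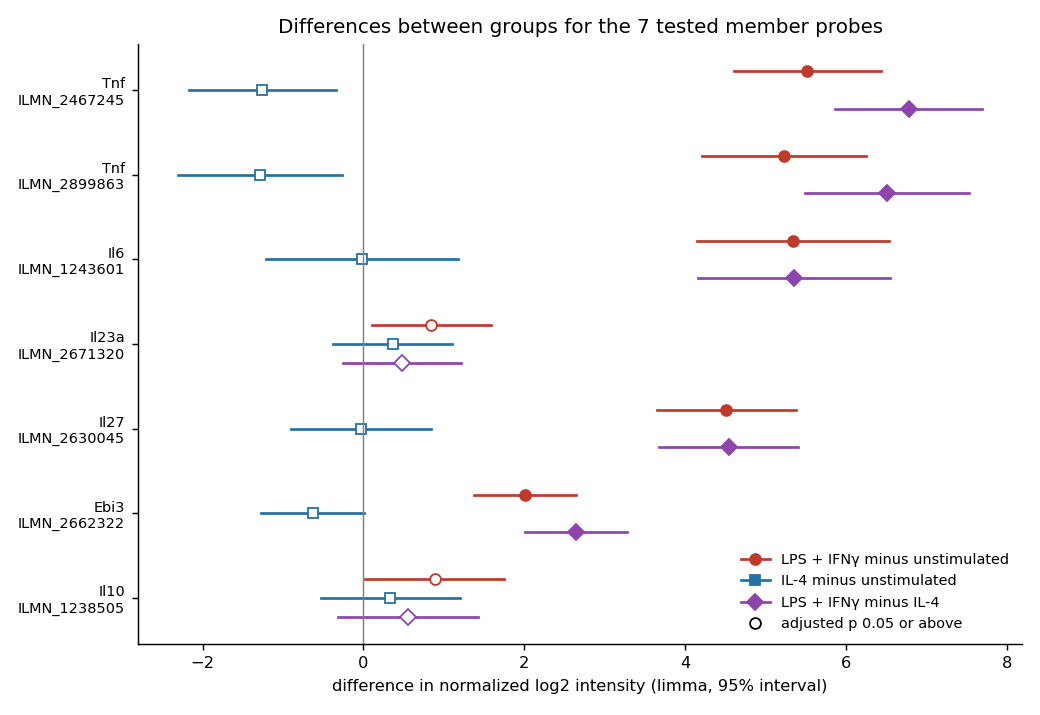
Difference in normalized log2 intensity (x axis) between groups for the 7 probes that were tested (y axis), with 95% intervals from limma. Colours and shapes give the 3 comparisons and open symbols an adjusted p of 0.05 or above. The LPS + IFNγ differences of Tnf, Il6, Il27 and Ebi3 are 2.01 to 6.78 and those of IL-4 from unstimulated are -1.28 to 0.36.

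The difference of LPS + IFNγ from unstimulated kept its sign for all 7 probes under each alternative in which the probe was tested. Il27, Il23a and Il10 were tested under 21 of the 22 alternatives, since a stricter filter (detection p under 0.01 on 3 arrays) left them out. Il6 was called under all 22. Tnf and Ebi3 were called under all but median centring, as was Il27 where it was tested. Median centring gave Tnf 4.26 and 3.96 (adjusted p = 0.0849 and 0.121), Il27 3.67 (0.104) and Ebi3 0.67 (0.639). Why these calls were lost was not tested. Median centring also moved the median difference of all probes from -0.22 to -0.83, and its split of calls to 30 higher and 1360 lower from 900 and 1755. With slide as a block the differences were 5.86 and 5.44 for the Tnf probes, 5.01 for Il6, 4.88 for Il27 and 1.84 for Ebi3, all called. On the second slide alone, with all 3 unstimulated arrays but 1 LPS + IFNγ array, they were 6.33, 6.02, 4.70, 5.29 and 1.95. The spread there came from the unstimulated arrays alone, so these are given as values.

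**Figure D4:**
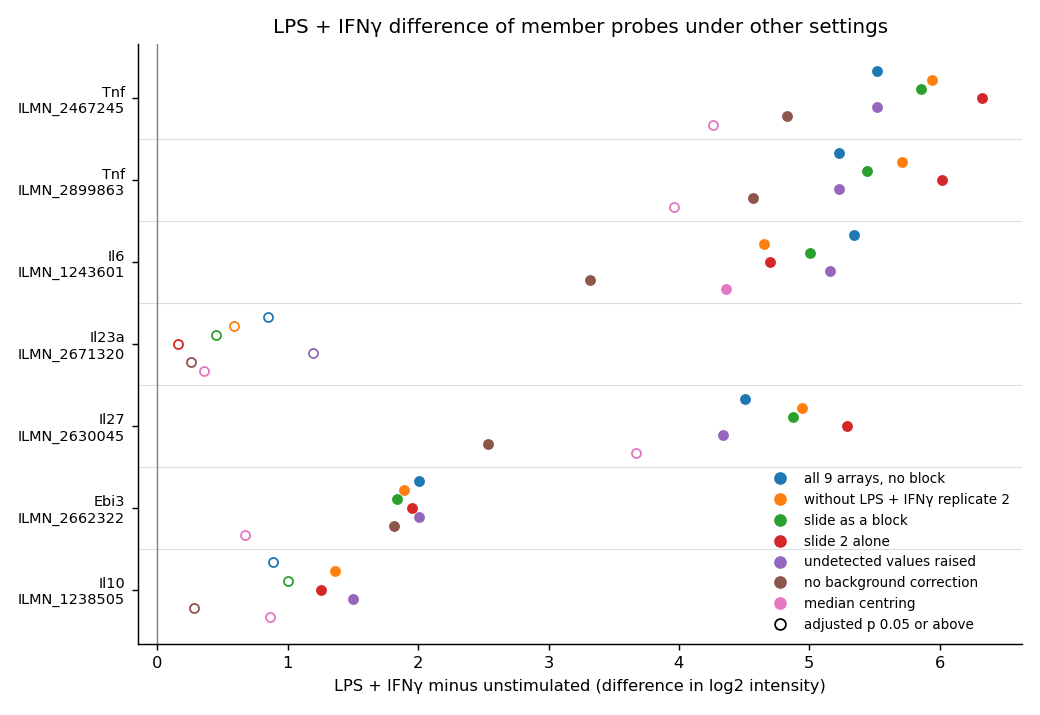
Difference of LPS + IFNγ from unstimulated in log2 intensity (x axis) for each tested probe (y axis) under 7 ways of processing (colours). Open symbols have an adjusted p of 0.05 or above. Tnf, Il6, Il27 and Ebi3 stay above 0 throughout, and Il10 passes when the weak array is left out. The second slide alone holds 1 LPS + IFNγ array, and raising undetected values sets Il10 on the weak array to that array's lowest detected level of 7.34.

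Other ligands of the same families were mostly near background. Of 14 listed, 5 were measured and 0 were called in any comparison. The median difference of the 5 from unstimulated after LPS + IFNγ was 0.72, which is the value of Lta. Osm and Tgfb1 were detected on all 9 arrays and differed by -0.27 and -0.49 (limma adjusted p = 0.615 and 0.372). Clcf1, Ctf1 and Lta passed the detection filter through their LPS + IFNγ arrays. They were detected on 3, 3 and 2 of these, against 0, 0 and 1 unstimulated arrays. This median and their calls are therefore a description. On the weak array Clcf1 was at 8.56 and Ctf1 at 7.85, against 4.96 to 5.44 on the other LPS + IFNγ arrays. Lta, which encodes lymphotoxin alpha and lies next to Tnf, had levels of 4.44, 4.91 and 4.56 in unstimulated cells and 5.46, 5.01 and 5.61 after LPS + IFNγ. Its groups did not overlap, and its difference of 0.72 did not pass (limma adjusted p = 0.0765) unless the weak array was left out (0.89, adjusted p = 0.00644). Ltb, on the other side of Tnf, was below the detection filter, as were Il19 and Il20, which neighbour Il10. Without the weak array, 2 of the 5 ligands were called higher, Lta and Ctf1. Over all probes, that setting gave more calls than leaving out any other single array (counts below). This also applies to the calls without the weak array that follow.

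Of 10 receptor genes for these cytokines, 7 were measured. After LPS + IFNγ, 0 were called higher than in unstimulated cells and 2 lower, with a median difference of -0.22, the same as over all genes. Of all genes, 6.12% were called higher and 12.2% lower. Il6ra, the ligand-binding subunit of the IL-6 receptor, had levels of 8.66, 6.57 and 7.53 in unstimulated cells and 6.31, 4.50 and 4.33 after LPS + IFNγ, which did not overlap. It was detected on 1 of the 3 LPS + IFNγ arrays. It fell by 2.54 (limma adjusted p = 0.0283), but by 1.40 with undetected values raised, which ended the call (adjusted p = 0.218). Il10rb, a subunit of the IL-10 receptor shared with related cytokines, fell by 1.03 (adjusted p = 0.039). Il6ra has 3 tested probes and Il10rb 2, and apart from the leading probe of each, 0 were called lower. Each of these 2 calls thus rests on 1 probe. Il6st, which encodes gp130, differed by -1.87 (adjusted p = 0.102). The TNF receptor Tnfrsf1b was at 11.12 and 10.90 on the well-read LPS + IFNγ arrays, 9.05 on the weak one and 9.40 to 9.59 on the unstimulated ones. Neither it (0.89, adjusted p = 0.271) nor Tnfrsf1a (0.20) passed, and the receptor genes Il12rb1, Il12rb2 and Il23r were below the detection filter. With slide as a block, neither receptor was called (adjusted p = 0.0571 for Il6ra and 0.247 for Il10rb). Fits of all probes without the filter, or of these 2 groups alone, ended both calls too, and the call of Il10rb was also lost on the second slide alone. Il6ra also failed without IL-4 replicate 2, LPS + IFNγ replicate 3, unstimulated replicate 1 or unstimulated replicate 3 (adjusted p 0.0515 to 0.0974). Il10rb failed without IL-4 replicate 2, LPS + IFNγ replicates 1 or 3, or unstimulated replicates 2 or 3 (0.0684 to 0.148). Without the weak array Tnfrsf1b (1.55, adjusted p = 0.000531) and Il10ra (0.82, adjusted p = 0.0346) were called higher.

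Of 9 measured genes of JAK-STAT signalling and its feedback, 3 were called higher after LPS + IFNγ and 0 lower (median 0.90). The shares of all genes were 6.12% and 12.2%. Socs3, the feedback inhibitor that binds gp130, was at 8.63, 5.36 and 9.43 in unstimulated cells, 11.98, 12.14 and 11.65 after LPS + IFNγ, and 7.83, 5.63 and 6.27 after IL-4. It rose by 4.11 (limma adjusted p = 0.0232), but a slide block ended the call (3.82, adjusted p = 0.144), as did leaving out LPS + IFNγ replicate 1 (0.0555). Jak2, a kinase of the IFNγ and IL-12 receptors, rose by 2.46 (adjusted p = 0.00464). Tyk2, a kinase of the IL-10 and IL-12 receptors, rose by 1.25 (adjusted p = 0.0145) on its leading probe. It has 3 tested probes, and 0 of the others were called higher. A slide block ended the call of Tyk2 (0.0624), and so did leaving out unstimulated replicates 1 or 3 (0.0625 and 0.0611). Without the weak array, where calls rose over all probes too, the count was 6. This added Stat4 (0.87, adjusted p = 0.0484), Socs1 (2.17, adjusted p = 0.00052) and Ptpn6 (0.90, adjusted p = 0.0346). Socs1 was detected on 0 of 3 unstimulated and 2 of 3 LPS + IFNγ arrays, and Stat4 on 1 and 2 of these. Without the weak array Socs1 was at least 3.38-fold higher, with undetected values raised.

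Transcription factors that act on these cytokine genes were measured for 14 of 17 listed. After LPS + IFNγ 4 were called higher and 0 lower (median 0.50), against 6.12% and 12.2% of all genes. Nfkbiz, an NF-κB cofactor needed for Il6 transcription, had levels of 8.54, 7.84 and 8.19 in unstimulated cells, 11.84, 12.36 and 11.96 after LPS + IFNγ, and 7.83, 6.43 and 6.39 after IL-4. It rose by 3.86 (limma adjusted p = 0.000648). Irf1, an interferon-induced activator, rose by 3.33 (adjusted p = 0.000791) and Rel, an NF-κB subunit that acts on the IL-12 genes, by 2.19 (adjusted p = 0.00307). Irf1 has 5 tested probes, and besides its leading one 2 were called higher. Bcl3, which binds NF-κB subunits in the nucleus, rose by 1.68 (adjusted p = 0.0389), but its call was lost with slide as a block (0.167) and without IL-4 replicate 3, LPS + IFNγ replicates 1 or 3, or unstimulated replicates 2 or 3 (0.0683 to 0.0956). Batf3, known for its role in dendritic cells, read 7.80, 8.65 and 8.63 after IL-4 against 6.68, 6.78 and 6.91 in unstimulated cells. This difference of 1.57 did not pass (adjusted p = 0.304). It passed under 4 of 23 alternatives, which were the deposited table (1.31, adjusted p = 0.035), array weights (0.000703), leaving out the weak array (0.0425) and the replicate block on the 6 IL-4 and unstimulated arrays (0.0231). Batf3 differed by -1.16 between LPS + IFNγ and IL-4 (adjusted p = 0.0348), and that call was lost under 13 of 23 alternatives. The other of its 2 tested probes was not called lower there. Etv3, a repressor that IL-10 induces in macrophages, differed by -1.55 after LPS + IFNγ (adjusted p = 0.0902) and was called lower without the weak array (-0.83, adjusted p = 0.0154) or LPS + IFNγ replicate 3 (-2.03, adjusted p = 0.0348).

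Regulators of the stability and release of these cytokines were measured for 10 of 11 listed genes. After LPS + IFNγ 2 were called higher and 1 lower (median 0.43), against 6.12% and 12.2% of all genes. Zc3h12a, which encodes the RNase regnase-1 that degrades Il6 mRNA, rose by 2.81 (limma adjusted p = 0.00171), from 6.85, 6.46 and 6.54 to 9.31, 9.20 and 9.75. Dusp1, a phosphatase that turns off the p38 kinase, rose by 1.81 (adjusted p = 0.00384). Zfp36l1, of the family of proteins that destabilise AU-rich mRNAs, fell by 1.58 (adjusted p = 0.00301). Zfp36, which encodes the relative that destabilises Tnf mRNA, was detected on all 9 arrays at 11.40 to 12.50 and did not pass (0.41, adjusted p = 0.352). Adam17, the protease that sheds TNF from the cell surface, did not pass against unstimulated cells (0.44, adjusted p = 0.236) and differed from IL-4 by 0.90 (adjusted p = 0.0313), a call lost under 11 of 23 alternatives, median centring (-0.58) and a slide block (0.0523) among them. Rhbdf2, which brings this protease to the cell surface, did not pass against unstimulated cells (1.12, adjusted p = 0.189) and was called higher without the weak array (1.78, adjusted p = 0.000686). Median centring ended every call named in the JAK-STAT, transcription factor and stability lists for LPS + IFNγ against unstimulated, and that of Il10rb but not of Il6ra. A fit of these 2 groups alone ended the calls of Socs3, Tyk2 and Bcl3, and testing all probes without the filter those of Socs3 and Bcl3. Against unstimulated cells, IL-4 called 0 genes in each of the 5 lists. With the replicate block on the 6 arrays of these groups it called 1, the transcription factor Batf3.

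**Figure D5:**
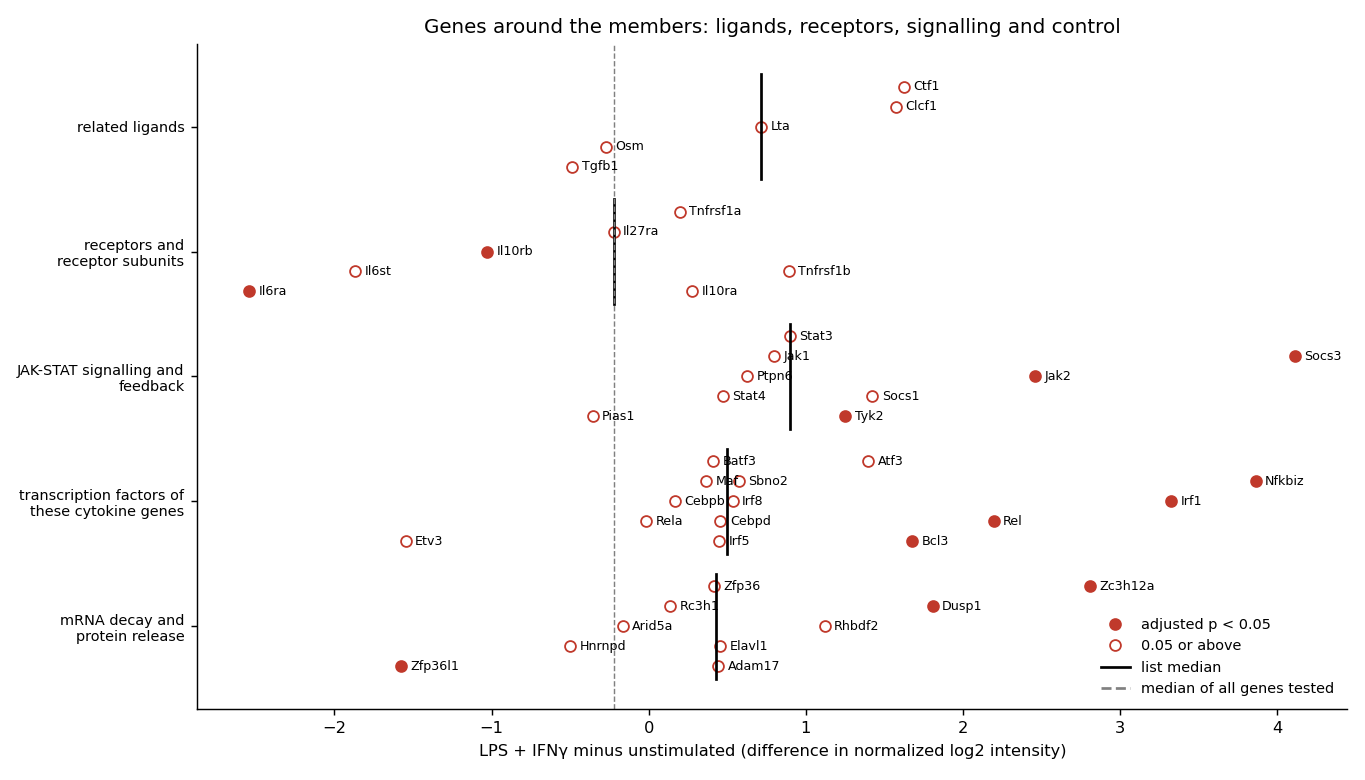
Difference of LPS + IFNγ from unstimulated in normalized log2 intensity (x axis) for each measured gene of 5 lists (y axis). Filled symbols passed an adjusted p of 0.05, short black lines are list medians and the dashed line is the median of 9391 genes at -0.22. Socs3, Nfkbiz, Irf1, Zc3h12a and Jak2 lie farthest to the right and Il6ra farthest to the left.

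The cells' labelled identity was checked with marker lists. Of 10 microglia and macrophage markers, 9 were measured, and their summed linear level was 26462 to 40174 on unstimulated arrays, 9155 to 9753 after LPS + IFNγ and 23533 to 28501 after IL-4. After LPS + IFNγ 5 of the 9 were called lower, against 12.2% of all genes. Among them were Cx3cr1 (-6.23, limma adjusted p = 0.00114), Fcrls (-3.33, adjusted p = 0.000456) and Csf1r (-2.64, adjusted p = 0.000823). Tmem119 was another (-2.49, adjusted p = 0.0491), and its call was lost under 14 of 22 alternatives. Aif1 (1.06, adjusted p = 0.0956), Itgam (0.50) and Ptprc (0.24) did not pass and had values above 0. Astrocyte markers were measured for 3 of 7, with Gfap and Aqp4 below the detection filter. Their sum was 65.8 to 125 on unstimulated, 143 to 189 on LPS + IFNγ and 74.7 to 1725 on IL-4 arrays, where Gja1 stood at 10.68 on replicate 1. Of 8 neuron and oligodendrocyte markers, 3 were measured, with sums of 789.6 to 855, 127 to 449 and 450.5 to 606 in the same order. Mbp was called lower after LPS + IFNγ (-2.54, adjusted p = 0.021) on its leading probe, and not on the other of its 2 tested probes. Of 8 markers of lymphocytes, neutrophils and dendritic cells, 2 were measured, with sums of 54.2 to 103, 140.2 to 267 and 45.1 to 52.4 in the same order. Cd3e, Nkg7, Flt3 and Zbtb46 were below the filter and S100a8 was called higher after LPS + IFNγ (1.56, adjusted p = 0.0296). Median centring ended the calls of Csf1r and S100a8 and a slide block those of Mbp and S100a8, and each of the latter was also lost without any 1 of 5 arrays (adjusted p up to 0.0725 and 0.0825). The part of these shifts in the cytokine levels was not tested.

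The 3 genes closest in pattern to each member were found by the root mean square difference over the 9 arrays after each gene was centred on its own mean. Tnf lay closest to the class II antigen presentation genes H2-Ab1 (0.60) and H2-Eb1 (0.71) and to the interferon-induced GTPase Gbp2b (0.68). Il6 was closest to Wdr20rt (0.42), the phosphatidylserine receptor gene Timd4 (0.46) and Nos2 (0.61), the inducible nitric oxide synthase. Il27 had Dusp2 (0.33), Calhm6 (0.36) and the C1 inhibitor gene Serping1 (0.41), and Ebi3 had the NF-κB inhibitor gene Nfkbie (0.19), Etnk1 (0.25) and Trim56 (0.30). Il10 was closest to Birc3 (0.09), Lrch4 (0.12) and Upk3b (0.15), and Il23a to Ccdc58 (0.16), Camk2a (0.18) and Apba3 (0.18). Among the members themselves the closest pair was Il23a with Il10 (0.66), both near background, followed by Tnf with Il27 (0.94). The farthest pair was Tnf with Il23a (2.75). The measure weighs size of change, and all 9 arrays enter it, the weak one included.

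Of the 32 genes that flank the 8 members, 2 on each side in the RefSeq gene order, 19 were measured. After LPS + IFNγ 2 were called higher and 0 lower than in unstimulated cells (6.12% and 12.2% of all genes), and IL-4 called 0. The 2 were Ublcp1 (1.89, limma adjusted p = 0.000385) and Rnf145 (1.56, adjusted p = 0.0139), both beside Il12b. A slide block ended the call of Rnf145 (0.104), and so did leaving out unstimulated replicates 1 or 2 (0.0607 and 0.06), and median centring ended both calls. With all arrays no measured neighbour of Tnf, Il6, Il27, Ebi3 or Il10 was called. Leaving out the weak array gave many more calls over all probes (counts below), so the calls that follow are not particular to these neighbours. Without the weak array Lta (values above), Dnajb6 beside Il6 (0.72, adjusted p = 0.0347), Nupr1 beside Il27 (2.89, adjusted p = 0.0446) and Yju2 beside Ebi3 (1.00, adjusted p = 0.00644) were called higher. So were Stat2 beside Il23a (2.30, adjusted p = 0.0168) and Ttc1 near Il12b (0.57, adjusted p = 0.0277), and Cnpy2 near Il23a was called lower (-1.05, adjusted p = 0.00451). Dnajb6 missed the threshold with all arrays (0.91, adjusted p = 0.0502) and passed under 8 of 22 alternatives.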

How the data were processed

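The authors deposited bead-array intensities on a linear scale, neither background-subtracted nor scaled, per the file headers and the values, each beside the scanner's detection p-value. They also deposited a table of log2 values. Set against the intensities, these equal quantile-normalized log2 signals minus the fitted slide effect (correlation -1.00 across probes), and they served as an alternative. Partek is named, with no role, per the submitters' processing notes.

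Normexp background correction of the intensities (limma 3.58.1, R 4.3.3; offset 16; control parameters estimated through the detection p) was followed by log2 and quantile normalization. One fit of 3 group means gave all comparisons (moderated test, no trend). It was tested on simulated data. An "at least" fold raises each undetected value to the lowest detected level of its array. The number of arrays limits the precision.

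Of the probes, 34885 carry 1 symbol, 18 several and 10378 none, and 34807 of the first matched the gene table by number. The members and gene lists were chosen with earlier results of these data known. Named are all members, the 3 most alike genes of each, and the 3 members of each list with the lowest adjusted p plus receptors and regulators of the members.

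Equal replicate numbers were checked by the correlation across probes of deviations from the group means. For IL-4 and unstimulated arrays it was 0.366, 0.427 and 0.30, and the pairing is taken from these values, since the labels only number the arrays. With LPS + IFNγ arrays it was -0.115 to 0.068. Alternatives covered background, scaling, filter, slide, pairing, weights and each array left out. Those for listed and neighbouring genes, the block fit of IL-4 and unstimulated arrays alone, and bounds without the weak array, were added after seeing the data.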

Additional observations from a re-analysis of the deposited data

How the results depend on the processing

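For LPS + IFNγ against unstimulated, 2655 probes were called, against 1390 under median centring, 981 with slide as a block, 1707 in a fit of those 2 groups and 6165 with array weights, which gave LPS + IFNγ replicate 2 a weight of 0.0396. Of 16895 probes tested, leaving out single arrays called 1471 to 5354, the highest without LPS + IFNγ replicate 2 and the lowest without unstimulated replicate 3. The 4 genes called became 1 (Il6) under median centring. For LPS + IFNγ against IL-4, 2463 probes became 1321 under median centring (37 higher and 1284 lower, from 818 and 1645), 1245 in a fit of those 2 groups, 6272 with array weights and 0 on slide 1 alone (2 arrays a group), and 1192 to 5042 with single arrays left out. Of the 4 genes, 2 were called under median centring (Tnf, Il6) and 0 on slide 1 alone, where the differences were 6.31 and 5.93 for Tnf, 5.67 for Il6, 4.13 for Il27 and 2.53 for Ebi3.

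For IL-4 against unstimulated, 10 probes became 5 under median centring, 26 in the deposited log2 table, 0 with undetected values raised, 4 with slide as a block, 4 on slide 2 alone (1 array of each stimulated group), 16 with an intensity trend, 23 in a fit of those 2 groups, 387 with array weights and 3 to 52 with single arrays left out. As a pairing, the replicate block gave 5 probes and 0 of the 6 genes tested over 9 arrays. Over the IL-4 and unstimulated arrays alone, this block gave 170 probes and 1 gene (Tnf). It changed no other call of a member. Array weights called 2 genes lower, Tnf (-1.15 and -1.23) and Ebi3 (-0.82). The IL-4 differences that changed sign were those of Il6, Il23a and Il27, which were -0.016, 0.36 and -0.029 in the main fit. Il6 was at 0.016 (offset 50), 0.0069 (no background correction), 0.0092 (median centring) and from -0.14 to 0.21 with single arrays left out. Il23a was at -0.013 (deposited table) and -0.036 (slide block). Il27 was at 0.32 (deposited table), 0.0016 (undetected raised), 0.34 (slide block) and from -0.14 to 0.039 with single arrays left out. Against IL-4, the LPS + IFNγ difference of Il23a was -0.074 under median centring and -0.094 on slide 2 alone. The cause was not tested for any of these.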

Other observations

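Beyond the members, other genes of the TNF ligand and receptor families on the array were looked at by symbol, a list drawn up after the data were known. Of 11 ligand genes named Tnfsf, 4 were measured. After LPS + IFNγ, Tnfsf9, which encodes the costimulatory 4-1BB ligand, rose by 1.72 (limma adjusted p = 0.00307), but not under median centring (0.208). Tnfsfm13, a read-through of the genes Tnfsf12 and Tnfsf13, was detected on 3 of 3 unstimulated and 0 of 3 LPS + IFNγ arrays. It was at least 5.83-fold lower after LPS + IFNγ (adjusted p = 0.000196), and at least 10.3-fold without the weak array. Of 20 receptor genes named Tnfrsf, 10 were measured, with 0 called higher and 4 lower, against 6.12% and 12.2% of all genes. Those 4 were Tnfrsf13b (-2.65, adjusted p = 0.00762), which encodes TACI, a receptor for BAFF and APRIL, Tnfrsf21 (-2.50, adjusted p = 0.0113), Tnfrsf22 (-2.52, adjusted p = 0.00437) and Tnfrsf26 (-1.02, adjusted p = 0.0386). With slide as a block Tnfrsf13b, Tnfrsf21 and Tnfrsf26 did not pass (adjusted p = 0.0654, 0.0976 and 0.195). Tnfrsf21 also failed without unstimulated replicate 3 (0.0535), and Tnfrsf22 with undetected values raised (-1.56, adjusted p = 0.0959). Tnfrsf26 was detected on 0 of 3 LPS + IFNγ arrays, its call was lost under 13 of 22 alternatives, and with undetected values raised its difference was 0.32 (adjusted p = 0.722). IL-4 called 0 genes of either family, and the same 5 genes were lower, and Tnfsf9 higher, after LPS + IFNγ than after IL-4.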
